A study of Mus musculus with 99 samples.

Results

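The 706 regions described here are the SUZ12 peaks of RING1B I53S MTF2 KO mouse ESCs after 72 h of OHT, all of the peaks in that library's list and 706 of 408060 peaks in the 74 lists read. They were chosen by that list alone, so their positions and scores are a description. The score of a peak is the −log10 of its MACS2 p-value, and the lists hold peaks with a score of at least 10. Apart from Eed fl/fl ESCs, the lines descend from Ring1a-/-; Ring1b fl/fl ESCs of 129P2/Ola origin with a ROSA26 creERT2 allele (Parental), in which OHT activates Cre and deletes Ring1b, and vehicle (ethanol) stands as −OHT. RING1B WT and RING1B I53S cells are sub-cloned derivatives that carry a FLAG-HA-tagged transgene in a pCAG vector, coding for the wild-type protein or for a form without E3 ligase activity. MTF2 KO derivatives of each of these lack Mtf2, and Eed fl/fl ESCs, a separate line with ROSA26 creERT2, lose Eed with OHT. Each ChIP-seq condition has 1 library, apart from MTF2 and JARID2 in RING1B I53S and RING1B WT cells with OHT, and each RNA-seq group has 2 biological replicates. Neither RNA nor H2AK119ub1 was measured in MTF2 KO cells in the files used here, so those readouts come from the lines with MTF2.

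SUZ12 is a core subunit of PRC2, the complex that methylates histone H3 at lysine 27 (H3K27me3). PRC2 comes in one form with MTF2, a Polycomb-like protein that binds DNA rich in unmethylated CpG, and in another with JARID2, which binds H2AK119ub1, the ubiquitin mark that RING1B and its partners place on histone H2A. In ESCs both forms sit mainly at CpG islands of silent developmental genes. RING1B I53S cells treated with OHT are meant to lack the ubiquitin mark, and the MTF2 KO takes away the MTF2 form as well.

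The peaks were few and mostly weak. Their median score was 11.5 (quartiles 11 and 13.6, range 10.0 to 968), 369 (52.3%) scored under 12 and 87 (12.3%) at least 20. Scores were coarse: 120 peaks shared the score 10.5, and 371 (52.5%) held one of the 5 most frequent values. The deposited peak names are numbered up to 7267, against 11662 for SUZ12 of Parental −OHT cells, and peaks with lower scores than the threshold were not analysed here. The median length was 695 bp (262 to 13110), the 706 peaks formed 598 loci when peaks within 5 kb were joined, and they covered 0.0258% of the genome.

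Most of the peaks did not overlap a called SUZ12 peak of Parental −OHT cells, which are another line and 1 library. Of the 706 peaks, 169 (23.9%, 95% Wilson interval 20.9 to 27.2) overlapped a SUZ12 peak of Parental −OHT cells, and 537 did not. A place without a called peak can still carry SUZ12 below the threshold, and 57 of the 537 overlapped a SUZ12 peak of Parental MTF2 KO −OHT cells. By called peaks of Parental −OHT cells, a name such as peaks that were left could therefore fit at most the 169. Of these, 99 (58.6%) also overlapped a SUZ12 peak of RING1B I53S +OHT cells, which keep MTF2. The 169 include 2 peaks of the mitochondrial genome, and 6 of them overlapped an input peak. In the other direction, 158 of the 9321 SUZ12 peaks of Parental −OHT cells held one of the 706 (1.70%, 1.45 to 1.98). The intervals cover counting over loci only, since 1 library a line gives no replicate spread and no test.

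The sequences at the peak centers show the kinds of place the list holds. Each run has 300 bases of the forward strand of GRCm38.p6 at the center of a peak, with every CpG in capitals. The first 4 are the highest-scored peaks at a promoter and the highest-scored outside SUZ12 of Parental −OHT cells. The last 4 were picked after their values were seen: peaks at Pax7, Wnt2 and Lhx1, the highest-scored at the listed developmental genes whose window holds no exon, and the peak of median score among those on chromosome 11 that did not overlap SUZ12 of Parental −OHT cells.
Gm10800, chr2:98666804-98667103: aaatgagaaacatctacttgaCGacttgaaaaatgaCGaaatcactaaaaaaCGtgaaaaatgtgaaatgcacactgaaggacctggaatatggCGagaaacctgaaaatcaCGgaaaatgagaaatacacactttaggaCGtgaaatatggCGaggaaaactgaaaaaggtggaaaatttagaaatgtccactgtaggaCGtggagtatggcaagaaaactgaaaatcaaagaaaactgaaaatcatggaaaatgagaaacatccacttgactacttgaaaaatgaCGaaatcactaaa
Mitochondrial genome within mt-Nd5, chrM:13155-13454: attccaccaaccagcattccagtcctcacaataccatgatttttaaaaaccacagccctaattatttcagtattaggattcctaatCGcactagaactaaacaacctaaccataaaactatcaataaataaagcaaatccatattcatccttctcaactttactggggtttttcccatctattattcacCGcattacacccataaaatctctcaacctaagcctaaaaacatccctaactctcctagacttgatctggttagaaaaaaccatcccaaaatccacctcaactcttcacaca
Mitochondrial genome within mt-Nd1, chrM:3120-3419: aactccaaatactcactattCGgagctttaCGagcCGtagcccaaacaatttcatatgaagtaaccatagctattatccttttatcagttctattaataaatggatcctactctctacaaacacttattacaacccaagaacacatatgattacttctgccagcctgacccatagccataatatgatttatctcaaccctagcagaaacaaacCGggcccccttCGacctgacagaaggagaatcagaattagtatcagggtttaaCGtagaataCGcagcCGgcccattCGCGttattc
Gm10717, chr9:3029938-3030237: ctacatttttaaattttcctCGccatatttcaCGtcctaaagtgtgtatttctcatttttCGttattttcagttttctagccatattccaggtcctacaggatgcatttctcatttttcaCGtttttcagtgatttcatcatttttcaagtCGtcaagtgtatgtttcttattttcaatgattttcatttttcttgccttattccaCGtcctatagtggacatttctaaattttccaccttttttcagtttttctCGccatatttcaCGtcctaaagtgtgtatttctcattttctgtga
Pax7, chr4:139831701-139832000: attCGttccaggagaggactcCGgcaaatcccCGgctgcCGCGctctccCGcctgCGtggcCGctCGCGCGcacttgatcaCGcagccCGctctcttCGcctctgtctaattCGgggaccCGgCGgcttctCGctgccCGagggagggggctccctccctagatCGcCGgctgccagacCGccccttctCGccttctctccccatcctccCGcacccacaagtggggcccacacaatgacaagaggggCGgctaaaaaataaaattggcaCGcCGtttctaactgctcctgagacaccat
Wnt2, chr6:18031839-18032138: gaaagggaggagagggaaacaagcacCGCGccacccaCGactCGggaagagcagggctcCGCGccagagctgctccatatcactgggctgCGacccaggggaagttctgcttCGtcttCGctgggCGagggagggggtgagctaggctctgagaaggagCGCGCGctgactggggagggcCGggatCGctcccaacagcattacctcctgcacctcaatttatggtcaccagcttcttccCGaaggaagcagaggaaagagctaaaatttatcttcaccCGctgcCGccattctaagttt
Lhx1, chr11:84521385-84521684: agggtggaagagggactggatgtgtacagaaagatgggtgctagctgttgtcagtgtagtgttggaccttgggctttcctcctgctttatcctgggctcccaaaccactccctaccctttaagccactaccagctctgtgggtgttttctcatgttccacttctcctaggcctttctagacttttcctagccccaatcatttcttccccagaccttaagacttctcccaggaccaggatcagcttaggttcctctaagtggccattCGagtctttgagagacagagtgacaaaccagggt
Intron on chromosome 11, chr11:100282609-100282908: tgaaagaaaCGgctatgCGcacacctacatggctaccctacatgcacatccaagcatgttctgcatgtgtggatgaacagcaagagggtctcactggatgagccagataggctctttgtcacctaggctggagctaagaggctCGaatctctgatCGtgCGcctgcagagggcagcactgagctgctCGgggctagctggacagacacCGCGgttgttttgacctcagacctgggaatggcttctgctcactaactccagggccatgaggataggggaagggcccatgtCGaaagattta
The Gm10800 and Gm10717 windows were 100% and 96.3% soft-masked, that is, marked as repeats in the reference. They held 9 and 8 CpG at a GC content of 35.3% and 32.7%. The Pax7 window, within an annotated gene and outside its exons, held 27 CpG at 64.0% GC, and the Wnt2 window, outside any annotated gene, held 18 at 59.3%. The Lhx1 window, within a gene and outside exons, held 1 CpG at 50.3% GC, and the chromosome 11 window held 9 at 54.3% GC.

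The highest scores fell on repeats and on the mitochondrial genome. The peak at Gm10800 (chr2:98666584-98667323) scored 968, and both mitochondrial peaks scored 402 and 315. Peaks at Gm10717 on chromosome 9 scored 272, at Gm21738 (chr14:19415876-19419361) 173 and at Gm10719, Gm10720, Gm10721 and Gm26870 163. The remaining 4 of the first 10 were also on chromosome 9, 2 of them near its start and 2 outside genes (chr9:123927724-123934346 and chr9:123935449-123937136), with scores of 95 to 115. All 10 overlapped a peak of at least 1 of the 4 input lists, as did 17 of the 706 peaks in all. Reads from near-identical copies cannot be assigned to one of them, so values at repeated places are uncertain. The peaks just inside the threshold scored 10.0 to 10.1 and lay in an intron (chr17:30615536-30615854), at Mir8103 and Osbpl7 (chr11:97065974-97067807), and between genes on chromosome 6.

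Chromosome 11 held 443 of the 706 peaks (62.7%), against 4.48% of the genome's length and 11.7% of the SUZ12 peaks of Parental −OHT cells. The 443 were spread along it: the 13 bins of 10 Mb held 8 to 66 peaks each, with a median of 37. Chromosome 6 came next with 79 peaks (11.2%), followed by chromosome 1 with 36, chromosome 4 with 31 and chromosome 17 with 27, while chromosomes 19 and Y held 0. Of the 263 peaks outside chromosome 11, 46 (17.5%) overlapped SUZ12 of Parental −OHT cells.

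**Figure D1:**
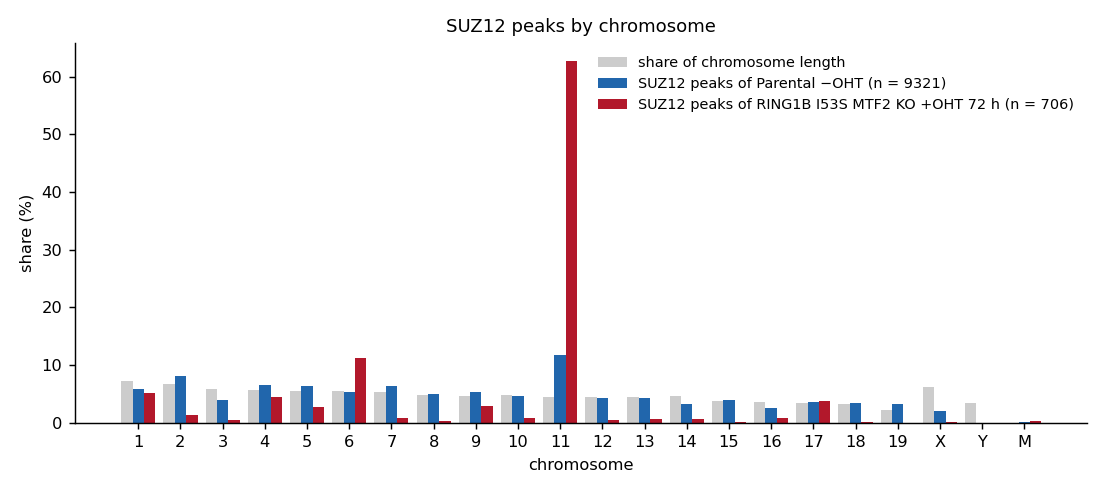
Share (%) of chromosome length (grey), of 9321 SUZ12 peaks of Parental −OHT cells (blue) and of the 706 SUZ12 peaks of RING1B I53S MTF2 KO +OHT cells (red) on each chromosome. Chromosome 11 holds 62.7% of the red peaks, 11.7% of the blue ones and 4.48% of the length.

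The share of peaks on chromosome 11 differed in degree between lists. In the 68 other ChIP lists of known group it had a median of 16% and was always above 4.48%, the share of the genome's length. Of these lists, 59 lay at 30% or less (7.14 to 29.4%). The 9 lists above included RING1B of Parental +OHT cells (82.6%), SUZ12 of Parental MTF2 KO +OHT cells (67.2%), RING1B of RING1B I53S +OHT cells (66.8%), and H3K27me3 of Parental MTF2 KO +OHT (59.6%) and RING1B I53S MTF2 KO +OHT cells (52.7%). SUZ12 of RING1B I53S +OHT cells, which keep MTF2, had 15.5% of 3475 peaks there. In the RNA, which shows transcripts and not DNA copies, chromosome 11 had the highest median of any chromosome for Parental −OHT minus Eed fl/fl −OHT cells, 0.65 on the log2 CPM scale, and chromosome 6 the next, 0.41, while RING1B I53S minus Parental cells, both −OHT, gave 0.00 and −0.01. For Parental minus Eed fl/fl cells the median over all chromosomes was 0.31. Chromosome 13 followed chromosome 6 with 0.36, and chromosome 8 was lowest with −0.25. Between Parental and Eed fl/fl cells, line and batch cannot be told apart, and the part of a chromosome copy number in the peak counts was not tested. The Eed fl/fl libraries also had counts at more genes, as given with the RNA below.

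**Figure D2:**
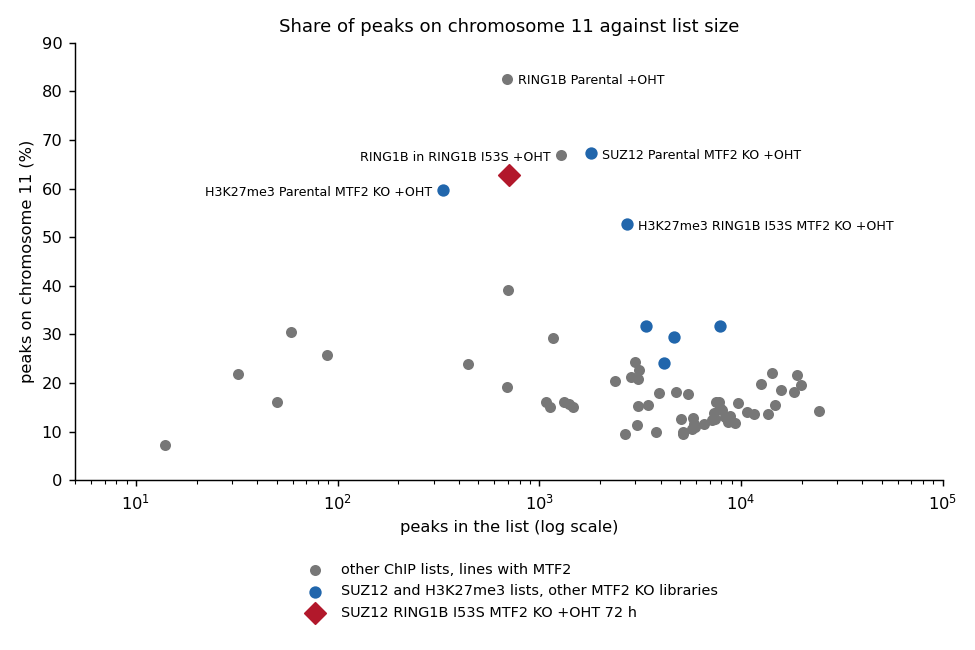
Share of peaks on chromosome 11 (%) against the number of peaks in the list (log scale) for 68 ChIP lists and the list described here (red diamond, 706 peaks, 62.7%). Lists of the other MTF2 KO libraries are blue, and 5 lists above 50% are named.

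Several groups of peaks lay close together, and their repeat content and copy number were not tested. Within 99.5 kb on chromosome 11 (chr11:3100199-3199653), 24 peaks with scores of 13.6 to 89.1 covered Sfi1, a gene for a centrosomal protein, and the pseudogene Pisd-ps1. On chromosome 1 (chr1:88211204-88310638), 17 peaks with scores of 16.6 to 48.1 lay at Hjurp, which codes for a centromere histone chaperone, Trpm8, a cold-sensing channel, Mroh2a and Ugt1a1. A group of 16 on chromosome 4 (chr4:147336780-147601976) and one of 12 at the start of chromosome 9 (chr9:3000103-3038067) lay at Gm models, and 8 of those 12 overlapped an input peak. Of these 4 groups, 7 peaks in all overlapped SUZ12 of Parental −OHT cells: 2, 4, 0 and 1.

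The share of SUZ12 peaks of Parental −OHT cells that held one of the 706 was higher on chromosome 11 and in the highest decile of scores. On that chromosome 114 of 1089 (10.5%, 8.79 to 12.4) held a peak, against 44 of 8232 (0.534%, 0.398 to 0.717) elsewhere. In that decile the share was 23.2% on chromosome 11 (29 of 125) and 2.60% elsewhere (21 of 807), and of the 100 highest-scored Parental peaks 20 held one, 15 of them on chromosome 11. The 169 peaks were mostly shorter than the Parental peaks, at a median of 30.6% of their length, and the scores had medians of 126 in Parental −OHT and 11.5 in RING1B I53S MTF2 KO +OHT cells. The largest such domain ran for 63093 bp over Hoxb3 to Hoxb9 (score 969) and held 4 peaks with scores up to 12.5.

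The SUZ12 peaks of Parental −OHT cells were looked for in every other line. SUZ12 peaks of RING1B WT +OHT cells overlapped 70.5% of the SUZ12 peaks of Parental −OHT cells, those of Parental +OHT cells 53.9% and those of RING1B I53S +OHT cells 32.2%. Without MTF2 the share was 34.3% in Parental −OHT, 34.8% in RING1B WT +OHT, 7.61% in Parental +OHT and 1.70% in RING1B I53S +OHT cells. Outside chromosome 11 the last 2 were 3.8% and 0.534%. These are 1 library each, called separately, so the depth of a library enters its share, and depth was not analysed here.

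**Figure D3:**
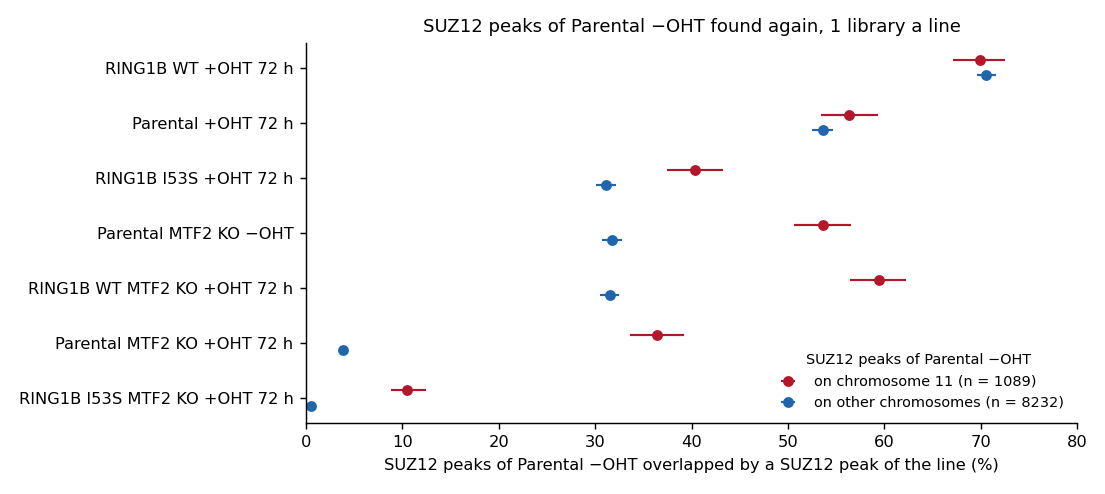
Share (%) of the SUZ12 peaks of Parental −OHT cells that a SUZ12 peak of each line overlaps, on chromosome 11 (red, n = 1089) and elsewhere (blue, n = 8232), with 95% Wilson intervals over loci. RING1B I53S MTF2 KO +OHT cells are lowest, at 10.5% and 0.534%.

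The 706 peaks were also compared with the SUZ12 lists of the other lines. SUZ12 of RING1B WT MTF2 KO +OHT cells overlapped 276 (39.1%), of Parental MTF2 KO +OHT cells 272 (38.5%) and of Parental MTF2 KO −OHT cells 183 (25.9%), whereas SUZ12 of RING1B I53S +OHT cells overlapped 116 (16.4%). Seen from the other side, the 706 touched 15.8% of the 1801 peaks of Parental MTF2 KO +OHT cells and 5.87% of the 4634 of RING1B WT MTF2 KO +OHT cells. In all 3 other MTF2 KO lists were 127 peaks, in none 342. Of the 169 peaks with SUZ12 in Parental −OHT cells 97 (57.4%) were in all 3, and of the 537 others 30 (5.59%).

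The marks and the other proteins were compared over the same split. It was made by overlap with SUZ12 of Parental −OHT cells. More overlap of the 169 with other Polycomb lists is therefore built in, and the shares are only a description. H3K27me3 of RING1B I53S MTF2 KO +OHT cells, the mark in the same cells, overlapped 77 of the 706 peaks (10.9%, 8.82 to 13.4). These were 32 of the 169 and 45 of the 537. It overlapped 1.41% of the Parental SUZ12 peaks that held none of the 706. On chromosome 11 the shares did not differ in this way, with 6.09% of 443 peaks and 6.15% of 975 Parental SUZ12 peaks without one. Outside chromosome 11 it overlapped 19% of 263 peaks, and 1.07% of all 8232 Parental SUZ12 peaks there. In Parental −OHT cells H3K27me3 overlapped 141 of the 169 (83.4%) and 80 of the 537 (14.9%), and H2AK119ub1 135 (79.9%) and 59 (11%). Of the 9163 Parental SUZ12 peaks that held none of the 706, these marks overlapped 75.3% and 56.8%. H2AK119ub1 peaks of RING1B I53S +OHT cells, a list that still held 3120 peaks, overlapped 128 of the 706 (18.1%), 100 of the 169 (59.2%) and 28 of the 537 (5.21%). H2AK119ub1 peaks of Parental +OHT cells, in which Ring1b is deleted, numbered 5450. They overlapped 70.4% of the 169 and 5.03% of the 537. Of the 9163 Parental SUZ12 peaks that held none of the 706, H2AK119ub1 of RING1B I53S +OHT cells overlapped 23.7%. H2AK119ub1 of Parental +OHT cells overlapped 40.0% of them. For the 975 of these on chromosome 11 the shares were 39.1% and 54.3%. Peak lists therefore cannot show whether the mark was lost, since they hold many peaks even without RING1B. The paper reports complete loss in RING1B I53S cells from western blots and spike-in normalized ChIP signal, which peak lists do not measure. The level of the mark in MTF2 KO cells was not analysed here.

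MTF2 and JARID2 mark the forms of PRC2. In Parental −OHT cells MTF2 overlapped 314 of the 706 (44.5%), with 165 of the 169 (97.6%) and 149 of the 537 (27.7%), and JARID2 overlapped 287 (40.7%), with 164 (97.0%) and 123 (22.9%). Of the 9163 Parental SUZ12 peaks that held none of the 706, MTF2 overlapped 99.6% and JARID2 93.5%, so such overlap is not particular to the 169. The MTF2 and JARID2 lists of Parental −OHT cells were the long ones, with 24485 and 14778 peaks. With OHT for 72 h, MTF2 overlapped 14.4% and 21% of the 706 in RING1B I53S cells and 23.4% and 22.5% in RING1B WT cells, a difference of −5.24 percentage points. JARID2 overlapped 10.5% and 8.92% in RING1B I53S and 18% and 17.8% in RING1B WT cells, a difference of −8.22. In both cases the 2 libraries of RING1B I53S lay below those of RING1B WT, and the exact permutation test (two-sided, 2 against 2) gave p = 0.333, the smallest it can give. The RING1B I53S lists also held fewer peaks in all, 3091 and 7546 against 8629 and 8335 for MTF2 and 1080 and 446 against 5728 and 5950 for JARID2, and the part of list length in these shares was not tested.

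PRC1 subunits were compared over the same split. RING1B of Parental −OHT cells overlapped 106 of the 169 (62.7%) and 17 of the 537 (3.17%). CBX7, the chromodomain subunit of canonical PRC1, overlapped 106 and 2, PCGF2, its scaffold partner, 109 and 11, and RYBP of variant PRC1 103 and 21. PCGF6, of a variant PRC1 that sits at germline genes, overlapped 120 (71.0%) and 68 (12.7%). Of the PRC2 partners, EPOP overlapped 148 and 26, and AEBP2 70 and 6. The median number of other ChIP lists that overlapped a peak was 40 for the 169 and 2 for the 537, and 180 peaks (25.5%) were in none of the 68. The 68 include the SUZ12 list of Parental −OHT cells that made the split.

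In place and sequence the 169 were close to the Parental SUZ12 peaks and the 537 were not. The 169 were picked by overlap with those Parental peaks, so this likeness is built into the split and is only a description. A promoter, here within 2.5 kb of any annotated start site, was hit by 340 of the 706 peaks (48.2%), by 126 of the 169 (74.6%) and by 214 of the 537 (39.9%), against 77.7% of the Parental peaks without one of the 706. Of the rest of the 706, 51 lay in exons, 147 in introns and 168 between genes. The CpG observed over expected in the central 300 bases had a median of 0.663 in the 169, 0.237 in the 537 and 0.679 in the 9163 Parental peaks without one of the 706, and GC content was 59.3%, 49.3% and 62.7%. Windows with a ratio of at least 0.6 and GC of at least 50% made up 50.3%, 7.45% and 58.9%.

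**Figure D4:**
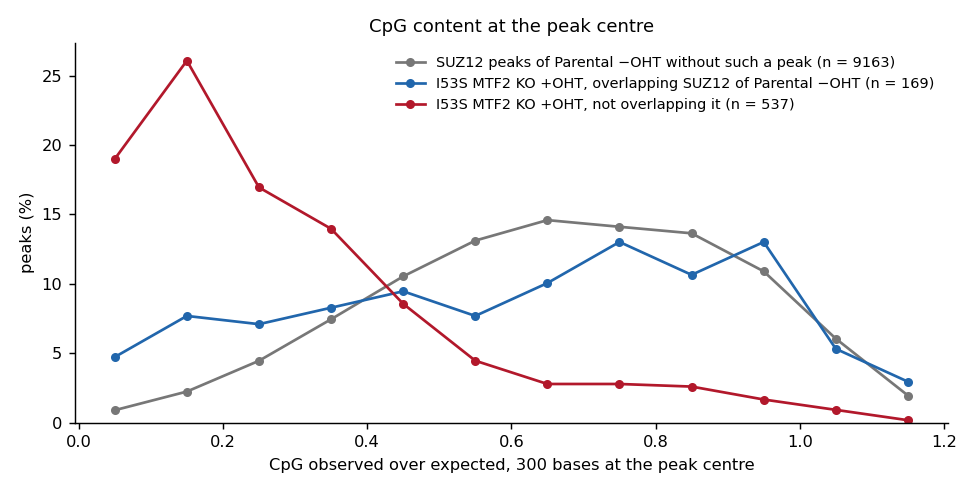
Distribution of CpG observed over expected (horizontal axis) in the 300 bases at the peak center, as a share of peaks (%), for 9163 SUZ12 peaks of Parental −OHT cells without one of the 706 (grey), the 169 peaks that overlap SUZ12 of Parental −OHT cells (blue) and the 537 that do not (red). The medians are 0.237 for red, 0.663 for blue and 0.679 for grey.

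Short motifs were counted on both strands of the same windows, and a match is only a run of letters. CGCGCG stood in 15.4% of the 169 windows, 1.49% of the 537 and 18.2% of the Parental windows. The repeats CACACACA (2.37%, 8.75% and 4.23%) and GAGAGAGA (2.96%, 6.52% and 3.78%) were more frequent in the 537 than in the 169. CACGTG, the E-box bound by the PCGF6 partners MGA and MAX, stood in 10.7%, 7.45% and 6.11%, and TTCAGCACC, the core of the REST site, in 1 of the 169, 0 of the 537 and 44 of 9163 (0.480%). Windows soft-masked over at least 50% of their bases were 1.18%, 16.2% and 0.633%, and 36.8% of the peaks with a score of at least 20.

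The promoters with a peak belong to 454 genes, 289 of them protein coding and 288 on chromosome 11, and 196 had a peak that overlapped SUZ12 of Parental −OHT cells. Among 445 genes on lists of developmental regulators, signals, Polycomb subunits and cell cycle genes, 388 had a SUZ12 peak of Parental −OHT cells at the promoter and 20 one of the 706. Those 20 were 4 of 39 Hox genes (Hoxb1, Hoxb3, Hoxb5 and Hoxb6), 2 of 26 Nkx and Lhx genes (Lhx1, Nkx1-1), 2 of 29 Pax, Dlx and related homeobox genes (Dlx3, Pax7) and 4 of 66 other homeobox genes (Barx2, Hmx3, Noto, Uncx). The others were the forkhead gene Foxb1, the neuronal bHLH gene Neurod2, the zinc finger gene Egr3, Wnt2, the ligand genes Fgf9, Fgf11 and Inhbb, and Bmi1, which codes for the PRC1 subunit PCGF4. None of the 13 Sox, 14 T-box, 6 Gata, 13 PRC2, 18 pluripotency and 10 cell cycle genes on the lists had one at the promoter. The lists are not complete families: Sox15, named after its values were seen, is on none of them and had one, and the Parental −OHT SUZ12 peak at Tbx2 held 2 farther from its start site. On chromosome 11 it was 8 of 40 listed genes. Prdm12, shown by the study as an example locus, had 1 SUZ12 peak of Parental −OHT cells (score 344) and 0 of the 706.

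At these 20 genes every peak overlapped a SUZ12 peak of Parental −OHT cells, of MTF2 and of JARID2. Pax7 (chr4:139831018-139832683), a regulator of muscle and neural crest, had the highest score, 18.9 against 416 in Parental −OHT cells. At Neurod2 (chr11:98326801-98329309), a driver of neuronal differentiation, it was 16.5 against 1211, and that peak overlapped 64 of the 68 other lists. At Uncx (chr5:139544083-139544904), a somite homeobox gene, the scores were 16.5 and 835, and at Hmx3 (chr7:131543970-131544736), a gene of the inner ear, 14.7 and 645. Lhx1, a gene of head organizer and kidney, held 3 peaks of 10.5 to 14.2 in a Parental domain of 707.

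RNA was compared in the lines with MTF2. Libraries held 6.96 M to 12.7 M counted reads (M for mega). Between 43762 and 46757 genes had a count in the Eed fl/fl libraries, against 23578 to 28032 in the other 12. What this difference does to the values of Eed fl/fl cells was not tested. Of the 454 genes, 276 passed the filter on low counts in the 12 libraries of the lines other than Eed fl/fl, so the counts below do not cover all 454. The calls below needed a log2 fold change beyond 1.5 in either direction and an adjusted p (Benjamini-Hochberg, edgeR quasi-likelihood) under 0.05. All 9 ESC markers had counts in every library. The summed level of the 4 endoderm markers was 1.35 to 2.20 CPM in RING1B I53S −OHT and 15.7 to 21.3 in +OHT cells, that of the 5 fibroblast markers 13.9 to 15.7 and 45.3 to 52.1, and that of the 9 ESC markers 4387 to 4810 and 2371 to 2774. The 4 trophoblast markers summed to 72.1 to 95.6 CPM in RING1B I53S −OHT and 87.9 to 116 in +OHT cells, ranges that overlap. Lum and Foxa2 were near 0 (means of 0.0873 and 0.477 CPM). Whether other cell types had a part in the changes was not tested, and in bulk RNA the number of cells of a type and the RNA per cell cannot be told apart. Rnf2, which codes for RING1B, stayed at 156 to 265 CPM in all 16 libraries, so its total mRNA does not show the deletion, and Eed went from 219 and 172 to 64.3 and 51.2 CPM in Eed fl/fl cells.

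With RING1B deleted in Parental cells, 53 of the 276 genes were called higher (19.2%) and 2 lower, against 15.1% and 1.83% of the 18154 genes tested. The genes split as the peaks did: 42 of the 123 whose peak overlapped SUZ12 of Parental −OHT cells were higher (34.1%) and 11 of the other 153 (7.19%). The 123 are by selection SUZ12 targets of Parental −OHT cells. The share called higher among all 8456 genes with such a SUZ12 peak at the promoter was not computed. Whether a peak that remained had a part in these calls was therefore not tested, here or in the comparisons below. Outside chromosome 11, 17 of 80 were higher. In RING1B I53S cells OHT gave 44 higher and 1 lower (background 12.8% and 1.04%), with 36 of 123 (29.3%) and 8 of 153 (5.23%). With RING1B WT it was 4 higher and 0 lower (background 1.34% and 0.0386%), and 0 higher without replicate 2 of RING1B WT −OHT. The 4 were 4 of the 123. By adjusted p alone, with no fold threshold, 107, 80 and 9 of the 276 were called in either direction in Parental, RING1B I53S and RING1B WT cells (background 34.3%, 26.7% and 2.21%). The median log2 fold change of the 276 was 0.25, 0.21 and 0.11 (0.10 with genes at 0 counts in a group set to their bound) for Parental, RING1B I53S and RING1B WT, against 0.03, 0.01 and 0.02 over all genes.

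RING1B I53S against RING1B WT, both +OHT, gave 23 higher and 0 lower of the 276 (background 6.02% and 0.6%), 21 of them among the 123, and 35 in either direction by adjusted p alone (background 13.3%). The number called higher was 7 without replicate 1 of RING1B WT +OHT, 14 without replicate 2, and 13 without replicate 2 of RING1B I53S +OHT. The comparisons share libraries and are not independent. The OHT effect itself differed between RING1B I53S and RING1B WT for 0 of the 276 by edgeR (background 0.347% in either direction), with 27 at an unadjusted p under 0.05 and 2 called by DESeq2. Between RING1B I53S and Parental it differed for 0 (background 0%), with 9 at an unadjusted p under 0.05 and 0 by DESeq2. In Eed fl/fl cells, fitted apart, 0 of the 303 genes tested were called with OHT by edgeR (background 0.00795%). Of them, 18 had an unadjusted p under 0.05, and DESeq2 called 1. A gene without a call may still have changed.

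Dlx3, a homeobox gene of skin and placenta, had the lowest adjusted p of the 276 for RING1B I53S with OHT (peak chr11:95119976-95121041, score 12.5). Its level was 2.12 and 0.865 CPM in Parental −OHT and 31.9 and 32.1 in +OHT cells, 1.70 and 0.672 in RING1B I53S −OHT and 23.7 and 29.4 in +OHT cells, and 1.07 and 0.00 in RING1B WT −OHT and 6.34 and 4.48 in +OHT cells. The groups with and without OHT did not overlap in any line, and RING1B WT +OHT lay between. The log2 fold change with OHT was 4.34 in Parental, 4.43 ± 0.489 (SE) in RING1B I53S (edgeR adjusted p = 2.81e-06) and 3.30 in RING1B WT cells (0.00718). RING1B I53S exceeded RING1B WT, both +OHT, by 2.28 (0.00156).

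Of the signaling genes, Egfr, the receptor of EGF (peak chr11:16752462-16753216), was at 6.33 and 4.51 CPM in RING1B I53S −OHT and 24.4 and 23.3 in +OHT cells, and at 3.50 and 2.47 against 24.2 and 25.5 in Parental cells. RING1B WT cells went from 3.21 and 2.85 to 8.15 and 7.97, a log2 fold change of 1.41 that misses the fold threshold, against 2.13 ± 0.271 in RING1B I53S (edgeR adjusted p = 1.26e-05). Sphk1, which makes sphingosine 1-phosphate, went from 2.94 and 1.06 to 16.6 and 22 CPM in RING1B I53S and from 2.99 and 1.32 to 4.23 and 6.72 in RING1B WT cells. Its log2 fold change in RING1B I53S was 3.23 ± 0.415 (edgeR adjusted p = 1.36e-05). The promoter of Sphk1 is shared with Gm29292.

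Nptx1, a secreted synaptic protein (peak chr11:119546528-119547814), had the lowest adjusted p of the 276 for RING1B I53S against RING1B WT. It stood at 8.02 and 8.61 CPM in RING1B I53S +OHT and at 1.01 and 1.25 in RING1B WT +OHT cells, a log2 difference of 2.88 ± 0.475 (edgeR adjusted p = 0.000683). In Parental cells it went from 0.570 and 0.124 to 8.20 and 7.02 CPM. RING1B WT −OHT cells had 0.963 and 0.439 CPM, and the log2 fold change with OHT, 0.66 ± 0.599, did not pass the test (edgeR adjusted p = 0.648).

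Spata20, Kif19a, a kinesin gene of cilia, and Cav2, a caveolin gene, completed the 6 lowest adjusted p-values for RING1B I53S with OHT. Spata20 went from 0.386 and 0.384 to 7.82 and 12.1 CPM, a log2 fold change of 4.65 ± 0.528, and Kif19a from 0.618 and 0.288 to 8.33 and 15.9, or 4.67 ± 0.562. Cav2 (peak chr6:17280693-17281246) was listed at 0.00 and 0.096 CPM before, which is 1 count, and at 6.92 and 5.43 after, so no fold is given. The single gene called lower, Gm28809, went from 3.09 and 4.89 to 1.70 and 0.517 CPM, a log2 fold change of −1.86 ± 0.582 (edgeR adjusted p = 0.0225), and its peak (chr6:125480418-125480945), also at the promoter of Cd9, overlapped neither SUZ12 of Parental −OHT cells nor any of the 68 other lists.

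**Figure D5:**
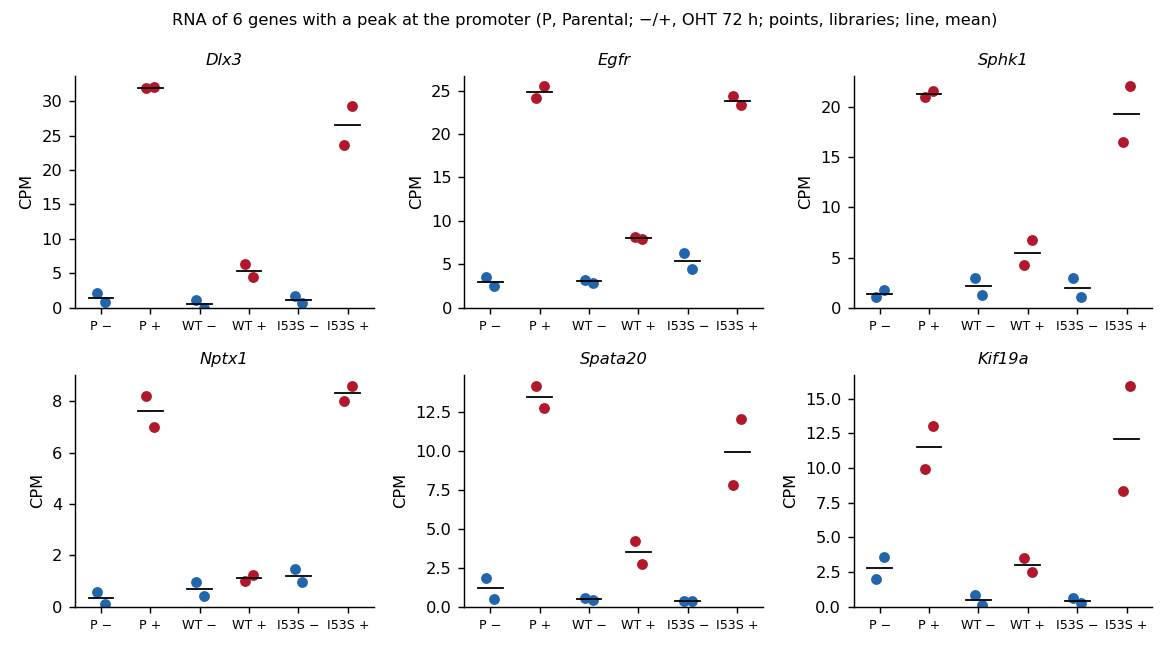
RNA level in CPM (vertical axis) of Dlx3, Egfr, Sphk1, Nptx1, Spata20 and Kif19a in each of 2 libraries (points) with the mean (line) for Parental (P), RING1B WT and RING1B I53S cells, −OHT in blue and +OHT in red. Parental and RING1B I53S +OHT libraries are above all −OHT libraries in each panel, and RING1B WT +OHT libraries lie below them.

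Most of the listed genes with a peak that could be tested were called higher with OHT in Parental and RING1B I53S cells. Listed genes without such a peak were not compared, so the part of the peak in these calls was not tested. All 3 tested Hox genes, Lhx1, Dlx3, Pax7, Hmx3, Noto, Wnt2, Fgf9 and Inhbb were called higher in both Parental and RING1B I53S cells with OHT, and Foxb1 in Parental cells. With DESeq2, Hoxb5, Hmx3 and Noto were no longer called in RING1B I53S cells, and Noto lost that call in 11 of the settings tried. Wnt2 had 0 counts in the 6 −OHT libraries of the Parental, RING1B I53S and RING1B WT lines (6 and 16 counts in Eed fl/fl −OHT cells) and reached 4.91 and 6.54 CPM in RING1B I53S +OHT cells, at least 45.1-fold higher taking 3 counts in the −OHT group as the floor, and 0.201 and 1.49 in RING1B WT +OHT cells. Hoxb1 had 0 counts in the same 6 libraries (3 and 10 in Eed fl/fl −OHT cells) and was at least 32.8-fold higher in Parental and at least 13.4-fold in RING1B I53S +OHT cells. Lhx1 reached 8.62 and 6.92 CPM in Parental, 4.91 and 4.65 in RING1B I53S and 0.403 and 0.623 in RING1B WT +OHT cells. Pax7 went from 0.773 and 0.672 to 2.41 and 3.19 CPM in RING1B I53S cells, a log2 fold change of 1.93 ± 0.594 (edgeR adjusted p = 0.0200). Of these genes, Dlx3, Lhx1, Wnt2 and Inhbb were also higher in RING1B I53S than in RING1B WT, both +OHT. Bmi1 went from 1.85 and 3.74 to 8.43 and 6.11 CPM in RING1B I53S cells, a log2 fold change of 1.39 that misses the fold threshold, and Fgf11 was not called. Neurod2, Uncx, Barx2, Nkx1-1, Egr3 and Hoxb3 did not pass the filter on low counts.

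The genes at the highest-scored peaks were not called in any of the 7 RNA comparisons where named here. Gm10800 ranged from 1.81 to 332 CPM over the 16 libraries, mt-Nd5 from 1348 to 2210 and Sfi1 from 5.76 to 63.9. Reads of near-identical copies make these levels uncertain.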

How the data were processed

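Peak lists of 69 ChIP and 4 input libraries of known group, 1 list without a group and RNA-seq counts of 16 libraries were used, of 99 samples in the series. The authors aligned paired-end ChIP reads with Bowtie (1.2.2), kept unique alignments, removed duplicates and called peaks per library with MACS2 (2.1.1) against an input at p = 1e-10. Their deposited mm10 lists give a −log10 p-value as score, with no read depth. The deposited RNA counts are raw counts per gene, made by the authors with STAR (2.7) and featureCounts on GENCODE release 21 without strand, so overlapping and antisense genes cannot be told apart. The submitters' notes also name DESeq2 (1.20) and dm6.

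Peaks overlapped when sharing at least 1 bp, and a promoter was within 2.5 kb of a start site. Shares have 95% Wilson intervals, which cover counting over loci only. Counts were tested with edgeR (4.0.16, R 4.3.3, TMM, filterByExpr, quasi-likelihood) over 12 libraries in 6 groups, with Eed fl/fl (4 libraries) fitted apart, with calls at a log2 change beyond 1.5 either way and a Benjamini-Hochberg FDR under 0.05. P-values rest on 2 replicates a group. DESeq2 (1.42.0) was an alternative. Sequences came from the GRCm38.p6 reference with pysam (0.24.0). Scripts were tested on simulated data. Named genes were the promoter genes of the 10 highest-scored peaks, of the 5 highest outside SUZ12 of Parental −OHT, the 3 lowest-scored peaks, the 6 and 3 lowest adjusted p among genes called higher and lower in RING1B I53S with OHT, 3 for RING1B I53S against RING1B WT and for Eed, list members with a peak, and Prdm12. The peaks, lists and tests were chosen with earlier results of these data known.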

Additional observations from a re-analysis of the deposited data

Results flagged for a closer look

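The list of 1 sample that the labels put in no group entered no comparison. It holds 61 peaks, 47.5% of them on chromosome 11, and overlapped 34 of the 706 peaks (4.82%, 95% Wilson interval 3.47 to 6.65), against 9 to 16 for each of the 4 input lists.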

How the results depend on the processing

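Shares of the 706 peaks moved with the score threshold. With only peaks of the other list scored at least 20, the overlap was 19.3% for SUZ12 of Parental −OHT, 2.83% for H3K27me3 of RING1B I53S MTF2 KO, 9.49% for H2AK119ub1 and 9.92% for SUZ12 of RING1B I53S. With only those of the 706 scored at least 20 it was 20.7%, 39.1%, 35.6% and 32.2%, with 63.2% at a promoter and 0.236% of the Parental peaks held. Requiring 50% coverage gave 15% for H2AK119ub1, 13.3% for SUZ12 of RING1B I53S and 0.622% of Parental peaks held. Joined loci gave 8.70% for H3K27me3, and 1 kb gave 36.3% at a promoter. Chosen after seeing the data, peaks outside chromosome 11 gave 17.5% for SUZ12 of Parental −OHT, 19% for H3K27me3, 19.4% for SUZ12 of RING1B I53S, 43.0% at a promoter and 0.534% of Parental peaks held, and outside chromosomes 6 and 11 the overlaps were 19% for SUZ12 of Parental −OHT, 26.6% for H3K27me3, 27.7% for H2AK119ub1 and 24.5% for SUZ12 of RING1B I53S. The cause was not tested.

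Genes called for Parental, RING1B I53S and RING1B WT with OHT and for RING1B I53S against RING1B WT were 55, 45, 4 and 23. They were 13, 10, 0 and 3 with at least 10 counts in every library, 107, 80, 9 and 35 with no fold threshold, and 18, 16, 0 and 8 outside chromosome 11 (chosen after seeing the data). With no filter RING1B WT gave 7. The difference of the OHT effect between RING1B I53S and RING1B WT gave 2 genes with DESeq2, 4 with no filter and 1 with the replicate block. Eed gave 1 with DESeq2, 1 with RLE, 2 with at least 10 counts and 2 with the replicate block. Same-numbered libraries correlated at 0.0011 to 0.213 over 15 pairs, so the numbers were not taken to pair them. In Eed fl/fl cells the 1 pair gave 0.411, and 1 pair is too few to decide. Leaving out 1 library gave 45 to 59, 32 to 48, 0 to 6 and 7 to 23 genes, 0 to 1 for the difference and 1 to 10 for Eed, and −8.50 to −1.98 and −8.99 to −7.44 percentage points for MTF2 and JARID2. Of 340 refitted values of 21 named genes, 26 lost a call (Noto 11, Hoxb5 6, Hmx3 4, Pax7 3, Gm28809 2), with DESeq2 among those settings for Noto, Hoxb5 and Hmx3, 2 gained one and 0 reversed.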
